A study of Mus musculus with 24 samples.

Results

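The genes described here encode 7 subunits of the GABA-A receptor, namely *Gabra2*, *Gabra3*, *Gabra4*, *Gabra5*, *Gabrb1*, *Gabrb2* and *Gabrd*. They were taken by gene symbol from a table of normalized counts that holds 15456 genes, and all 7 were present. RNA was sequenced from the medial prefrontal cortex (mPFC) of 24 male BALB/c OlaHsd mice (BALB/C in the labels), which the labels place at postnatal week 11, with 1 library per mouse. The mice carried no engineered allele, and 6 mice formed each of 4 groups. The control group, labelled as untreated, was given PBS according to the methods. The duloxetine group received this antidepressant, an inhibitor of serotonin and noradrenaline reuptake, by daily intraperitoneal injection at 10 mg per kg for 21 days before behavior was tested. The *R. flavefaciens* group was gavaged repeatedly with living *Ruminococcus flavefaciens*, an anaerobic gut bacterium that breaks down cellulose, and the combined group received both treatments. Tissue was punched from brain slices, so each library mixes all cells of the punch, and fewer cells of a type cannot be told apart from less RNA per cell.

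GABA-A receptors are chloride channels that open when GABA, the main inhibitory transmitter of the cortex, binds to them. Each channel is a ring of subunits, usually built of alpha and beta subunits, which form the GABA binding sites between them, together with a gamma or a delta subunit. The alpha subunit sets much of the kinetics and drug sensitivity, a beta subunit is needed for the ring to assemble and reach the membrane, and the gamma or delta subunit bears on whether the receptor sits in or outside the synapse. Receptors with alpha5 or delta subunits are best known for tonic inhibition by ambient GABA, and those with alpha2 or alpha3 for synaptic inhibition.

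Before the groups are compared, the libraries and the tissue are described. Whole reads could be recovered from the normalized counts and summed to between 12811413 and 15607343 per mouse. The group medians were 13591497 reads in control, 14536037 in duloxetine, 13943370 in *R. flavefaciens* and 14621655 in combined mice. All 8 excitatory neuron markers, led by *Camk2a*, were measured, as were all 13 inhibitory, all 8 upper layer and all 10 deep layer markers, so the libraries carry the markers of cortex that the label calls for. Mouse 8_4 of the *R. flavefaciens* group also had high counts of striatum markers. The 8 striatum markers, led by *Pde10a*, summed to 7980 normalized counts in this mouse, and to between 2821 and 3595 in the controls. In mouse 11_4 of the combined group they summed to 4904. The 3 choroid plexus markers in the table summed to 791 normalized counts in mouse 8_4 and to between 39.2 and 64.2 in the controls. *Kl*, the most abundant of the 3 over all mice, had 73.8 of these counts in mouse 8_4, so the other markers gave most of the sum there. Over the 10542 genes that averaged 100 normalized counts or more, mouse 9_3 of the *R. flavefaciens* group lay farthest from the median of all mice, with a root mean square deviation of 0.308 on the log2 scale. Mice 12_2 (combined) and 8_4 followed with 0.217 and 0.209, and the controls lay between 0.115 and 0.140.

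These libraries also differed in how counts depended on transcript length. For each mouse, the deviation of each gene from its mean over all mice was ranked against the length of its longest coding transcript. The rank correlation across genes was -0.58 in mouse 9_3, -0.32 in mouse 7_2 and -0.24 in mouse 8_4, all from the *R. flavefaciens* group, which means that long transcripts had relatively few counts there. In the 6 controls it was between 0.11 and 0.26. The cause of this trend was not tested.

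In the control mPFC the 7 genes were expressed at levels that can be ordered per kilobase of transcript. *Gabrb2*, a beta subunit that is common in adult cortex, led them with 728 ± 20.9 normalized counts per kilobase (SD, n = 6 mice). *Gabra3* followed with 705 ± 15.0 per kilobase, and the ranges of these genes over the control mice overlapped. *Gabra2* came next with 456 ± 30.1 per kilobase, then *Gabra4* with 381 ± 18.8 and *Gabra5* with 370.3 ± 12.1, a pair whose ranges overlapped. *Gabrd* with 274 ± 28.9 and *Gabrb1* with 243 ± 11.8 per kilobase closed the order, again with overlapping ranges. *Gabrb1* stands last per kilobase although it had the most counts of the 7, since its longest coding transcript has 13737 bases and which transcripts were in use was not measured. Of other subunit genes, *Gabrg3*, *Gabrg1* and *Gabrq* lay below all 7, at 80.8 ± 2.19, 58.0 ± 3.85 and 2.58 ± 0.632 per kilobase.

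**Figure D1:**
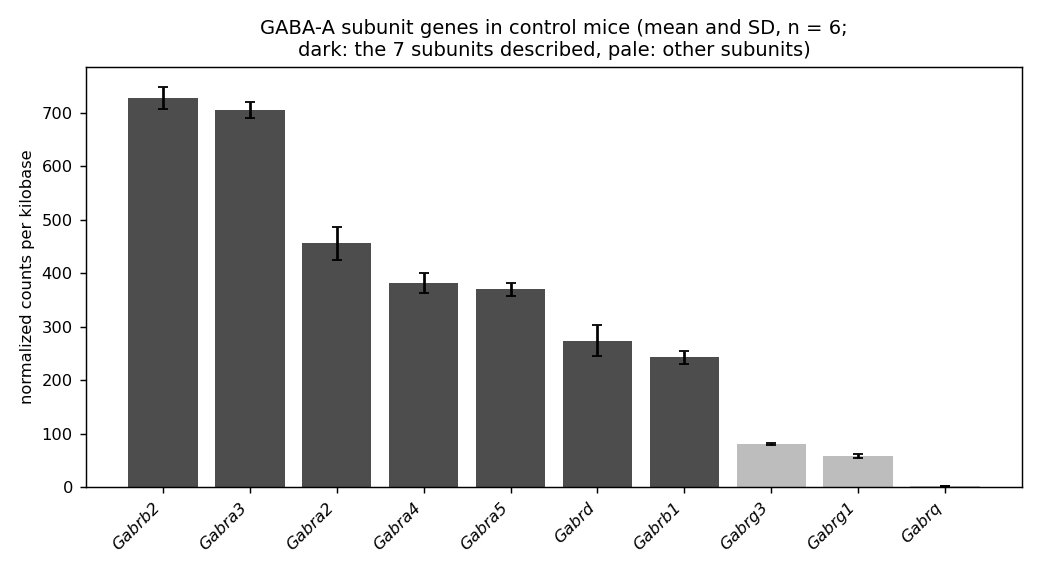
Normalized counts per kilobase of the longest coding transcript (vertical axis) in control mice for 10 GABA-A subunit genes, as mean and SD over 6 mice. Of the 7 subunits described (dark bars), *Gabrb2* and *Gabra3* stand highest and *Gabrd* and *Gabrb1* lowest, and *Gabrg3*, *Gabrg1* and *Gabrq* (pale) lie below them.

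The comparisons asked whether the bacterium, the antidepressant or both change expression in the mPFC. None of the 7 genes passed an adjusted p-value of 0.05 in limma (Benjamini-Hochberg over 14974 genes tested) in any of 8 comparisons. The members that stood farthest from control were the beta subunits of the *R. flavefaciens* group. There *Gabrb1* had a log2 fold change of -0.35 (adjusted p = 0.0727) and *Gabrb2* of -0.52 (adjusted p = 0.0938). *Gabra5* lay lower by less, *Gabrd* lay higher, and *Gabra2*, *Gabra3* and *Gabra4* had log2 fold changes of -0.0016, -0.04 and -0.05.

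**Figure D2:**
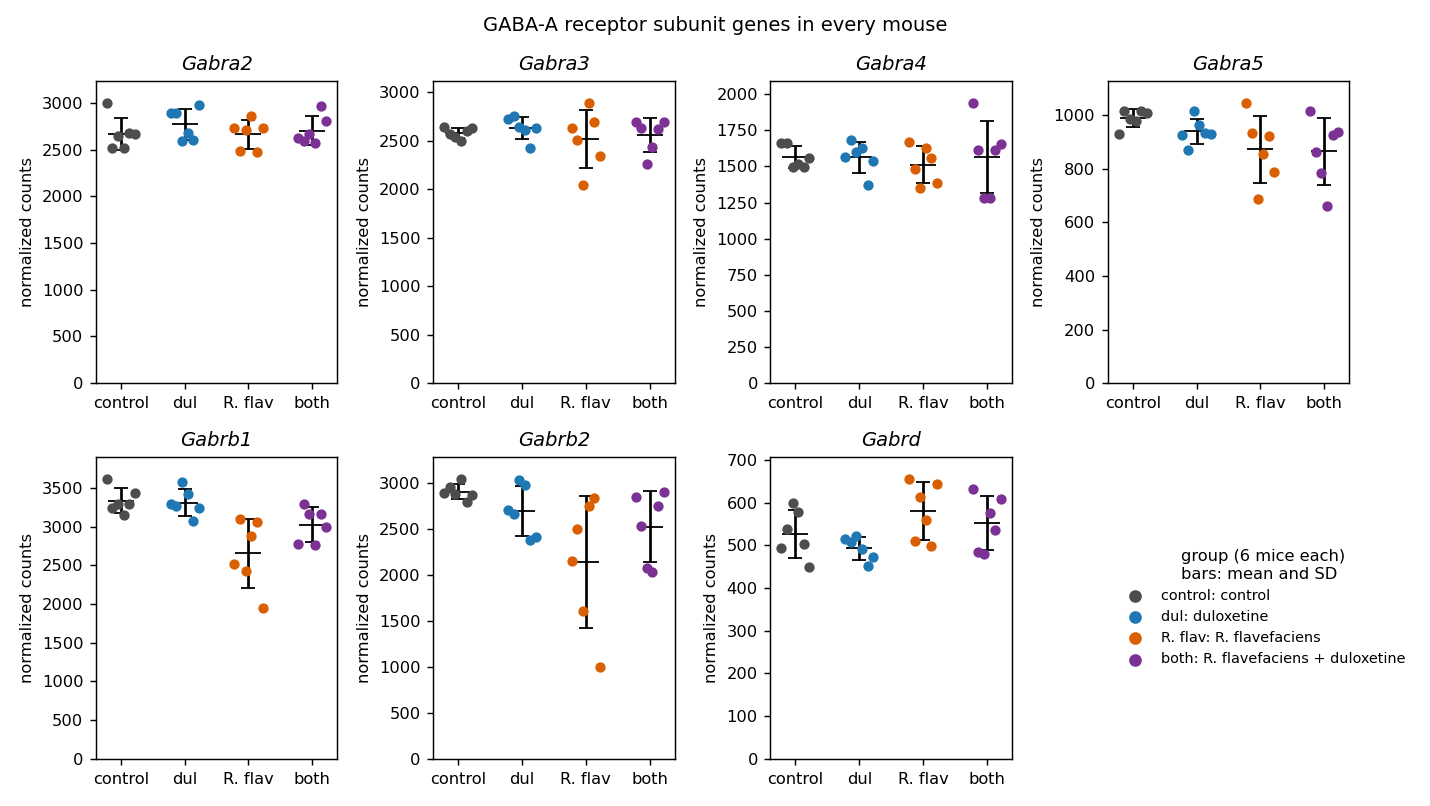
Normalized counts (vertical axes, from 0) of the 7 genes in each of 24 mice by group, with the mean and SD of 6 mice. In *Gabrb1* every *R. flavefaciens* mouse lies below every control, and in *Gabrb2* the *R. flavefaciens* mice spread from 1002 to 2838.

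The beta subunit genes are described first. *Gabrb1* (ENSMUSG00000029212.11) is found on chromosome 5 of GRCm38, plus strand, at 71658113 to 72149037, in a cluster of GABA-A genes. *Gabrb2* (ENSMUSG00000007653.12) is found on chromosome 11, plus strand, at 42419757 to 42629028. The bases before a transcription start are shown for these genes, which stood farthest from control and varied together, and for *Gabra2*, which did not differ in level between the groups by more than its spread. They are RefSeq sequences on GRCm38.p6, which held 10 starts for 6 of the 7 genes. Of 2 starts of *Gabrb1* and 3 of *Gabrb2*, the one shown is that with a motif match, and the others held none. The *Gabrb1* start shown lies inside the gene, downstream of the other start, whose 250 bases lie at chr5:71657671-71657920. Each run has 250 bases, ends at the base before the start, and reads 5′ to 3′ on the strand of the gene. They lie at chr5:71699682-71699931 on the plus strand, chr11:42420190-42420439 on the plus strand and chr5:71095850-71096099 on the minus strand. Capitals mark matches to the motif letters given beneath.
Gabrb1: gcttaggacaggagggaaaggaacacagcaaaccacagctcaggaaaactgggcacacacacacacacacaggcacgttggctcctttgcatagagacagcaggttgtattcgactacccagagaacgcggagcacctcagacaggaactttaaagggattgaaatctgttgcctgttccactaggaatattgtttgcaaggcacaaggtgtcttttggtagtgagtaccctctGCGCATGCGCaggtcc
Gabrb2: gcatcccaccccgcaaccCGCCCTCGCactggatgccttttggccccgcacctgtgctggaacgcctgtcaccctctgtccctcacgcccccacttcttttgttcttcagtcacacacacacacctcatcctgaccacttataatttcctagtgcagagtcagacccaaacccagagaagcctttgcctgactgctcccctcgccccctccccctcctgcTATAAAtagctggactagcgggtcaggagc
Gabra2: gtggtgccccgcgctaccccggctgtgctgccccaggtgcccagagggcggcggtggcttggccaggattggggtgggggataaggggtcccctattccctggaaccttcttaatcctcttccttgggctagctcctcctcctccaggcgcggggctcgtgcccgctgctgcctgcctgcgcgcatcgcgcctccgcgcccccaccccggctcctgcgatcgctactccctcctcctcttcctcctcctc

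Each motif was searched on both strands in the 250 bases before 32851 RefSeq starts. The NRF1 letters GCGCNTGCGC, where N is any base, were found before 1 of the 10 starts, the *Gabrb1* start shown, at 16 to 7 bases before it. They occur before 3.74% of all starts. The letters TATAAA stand 30 to 25 bases before the *Gabrb2* start. On the other strand they occur once before *Gabra3*, at 123 to 118 bases before 1 of its starts and 235 to 230 bases before the other, since these windows overlap. They are found before 12.4% of all starts. The EGR letters GCGNGGGCG were found on the other strand at 232 to 224 bases before the *Gabrb2* start, and before 4.7% of all starts. The CRE letters TGACGTCA were before none of the 10 starts, and before 1.55% of all. The run before *Gabra2*, with 70% G and C, held none of these letters. A match describes the sequence, and binding was not measured.

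For *Gabrb1* the control mice had 3152, 3242, 3287, 3290.4, 3430 and 3612 normalized counts. The *R. flavefaciens* mice had 1949, 2426, 2512, 2879, 3062 and 3099. Every treated mouse thus lay below every control, and the groups did not overlap, which held for 0.835% of all genes tested in this direction. The means were 3336 ± 162 in control and 2654 ± 444 in *R. flavefaciens* mice (SD, n = 6 each). The log2 fold change of *Gabrb1* was -0.35 (standard error 0.078, 95% interval -0.51 to -0.19), with a limma adjusted p of 0.0727. The lowest values belonged to mice 9_3, 8_4 and 7_2, the libraries with the most negative length trend. Without mice 8_4, 9_3 and 12_2, an alternative chosen after seeing the data, the log2 fold change of *Gabrb1* was -0.21 (limma adjusted p = 0.273).

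For *Gabrb2* the control mice had 2793, 2869, 2882, 2889, 2951 and 3038 normalized counts. The *R. flavefaciens* mice had 1002, 1608, 2150, 2492, 2750 and 2838. Of the treated mice, 5 lay below every control and 1 lay within their range. The spread within the treated group was wide, with means of 2904 ± 83.2 in control and 2140 ± 716 in *R. flavefaciens* mice (SD, n = 6 each). The coefficient of variation was 2.86% in control and 33.4% in *R. flavefaciens* mice. The log2 fold change of *Gabrb2* was -0.52 (standard error 0.16, 95% interval -0.86 to -0.19), with a limma adjusted p of 0.0938. Mice 9_3 and 8_4 gave the 2 lowest values here as well, and without mouse 9_3 the log2 fold change of *Gabrb2* was -0.32 (limma adjusted p = 0.25). Without mice 8_4, 9_3 and 12_2 the log2 fold change of *Gabrb2* was -0.19 (limma adjusted p = 0.472).

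At an unadjusted p below 0.05, 3 of the 7 genes were lower in *R. flavefaciens* mice, which are *Gabrb1*, *Gabrb2* and *Gabra5*, and 0 were higher. Of all genes, 10.8% were lower and 8.86% were higher by this rule. At the adjusted threshold limma called 0.0267% of all genes and edgeR on recovered reads called 0 of the 7 and 0.0267% of all genes. DESeq2 on the recovered reads called *Gabrb1* alone among the 7 (log2 fold change -0.33, adjusted p = 0.0135), and called 3.26% of all genes. A limma fit with the first number of the mouse label as a random block also called *Gabrb1* (adjusted p = 0.0467), beside 1.48% of all genes. No first number is shared between groups, and the consensus correlation was -0.0451, so this fit cannot separate an effect of that number from the treatment. At an adjusted p below 0.1 both *Gabrb1* and *Gabrb2* were called, as were 3.87% of all genes. The median log2 fold change of the 7 genes was -0.05, and that of all genes tested was 0.0031.

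**Figure D3:**
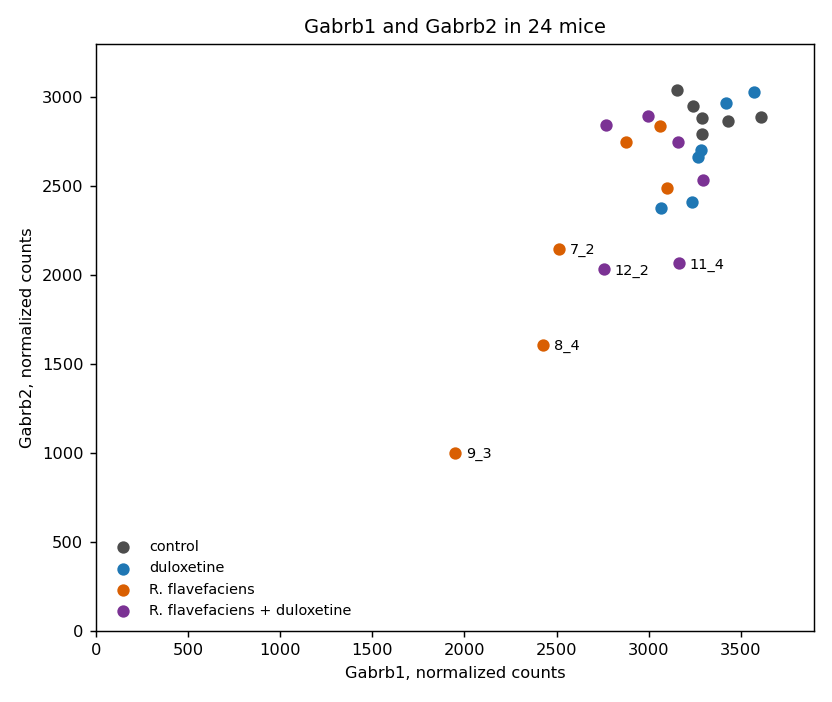
Normalized counts of *Gabrb1* (horizontal axis) and *Gabrb2* (vertical axis) in 24 mice, colored by group, with 5 mice named. Mice 9_3, 8_4 and 7_2 of the *R. flavefaciens* group are low in both genes, and the controls lie together at 3152 to 3612 and 2793 to 3038.

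The beta subunit genes also followed the length trend of the libraries. After the group means were taken off, the correlation of *Gabrb1* with the length trend of the mouse was 0.87, and that of *Gabrb2* was 0.83 (Pearson, 24 mice, a description of libraries that share their depth and preparation). It was -0.15 for *Gabra2*, 0.22 for *Gabra4*, 0.24 for *Gabra5*, 0.42 for *Gabra3* and -0.39 for *Gabrd*. Mouse 9_3 was lowest in both beta subunit genes and in the length trend, and no correlation with that trend was computed without it. *Gabrb1* has the longest transcript of the 7, with 13737 bases, whereas that of *Gabrb2* has 3989 bases. When each library was first corrected for transcript length by a loess curve, the log2 fold change for *R. flavefaciens* against control was -0.14 for *Gabrb1* (limma adjusted p = 0.259) and -0.50 for *Gabrb2* (limma adjusted p = 0.251). With a trend on GC content removed in its place, the values were -0.30 for *Gabrb1* (limma adjusted p = 0.0806) and -0.49 for *Gabrb2* (limma adjusted p = 0.111). Over all genes, the log2 fold changes of this comparison had a rank correlation of -0.487 with transcript length.

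**Figure D4:**
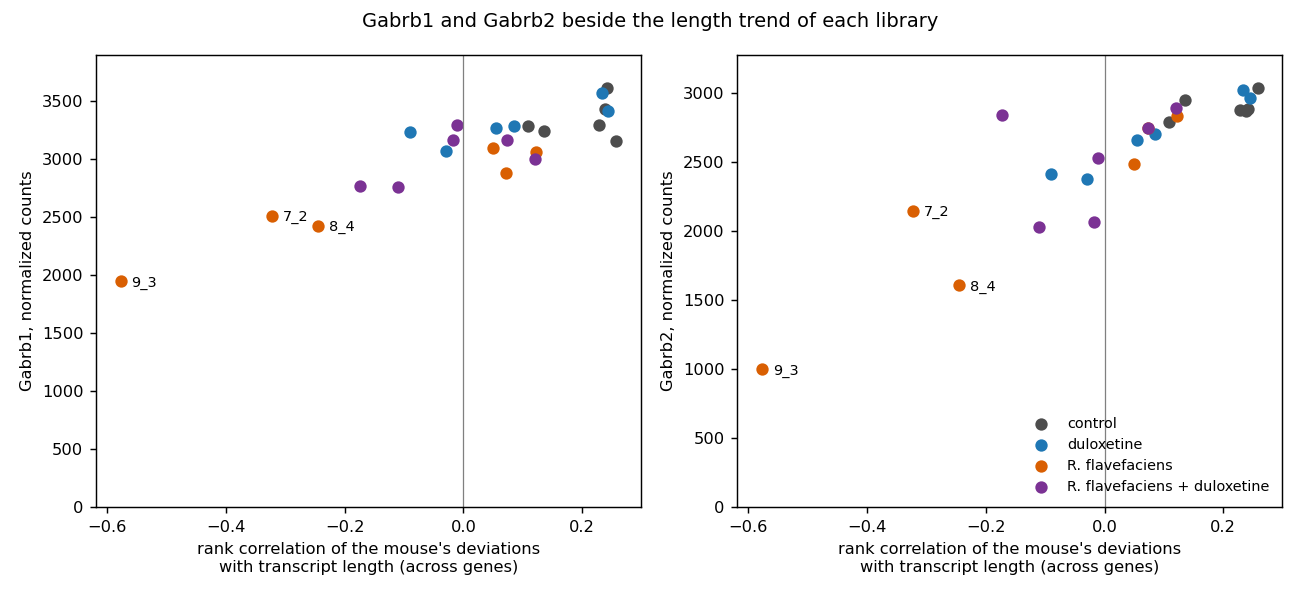
Normalized counts of *Gabrb1* (left) and *Gabrb2* (right) in 24 mice against the rank correlation, across genes, between the deviations of the mouse and transcript length. Both genes are lowest in mouse 9_3, whose correlation is -0.58, and highest among mice with positive correlations.

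*Gabra5* (ENSMUSG00000055078.7) encodes the alpha5 subunit and lies on the minus strand of chromosome 7 from 57407672 to 57510059. Its normalized counts were 931, 979, 987, 1008, 1015 and 1015 in the control mice. In the *R. flavefaciens* mice they were 689, 789, 855, 923, 933 and 1044. Of the treated mice 4 lay below every control and 1 above, so the groups overlapped. The log2 fold change of *Gabra5* was -0.19 (standard error 0.084, 95% interval -0.37 to -0.02), with a limma adjusted p of 0.201. Mice 8_4 and 9_3 were again the lowest. Without mouse 8_4 the value was -0.13 (limma adjusted p = 0.411), and without mice 8_4, 9_3 and 12_2 it was -0.08 (limma adjusted p = 0.702). The counted reads of *Gabra5* are uncertain, since annotated genes on the opposite strand overlap it and the library kit does not keep strand.

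*Gabrd* (ENSMUSG00000029054.8) encodes the delta subunit of receptors outside the synapse and lies on the minus strand of chromosome 4 from 155384980 to 155398112. It was the member with higher counts in *R. flavefaciens* mice, at 498, 511, 558, 614, 643 and 655. The control mice had 450.2, 493, 502, 537, 577 and 598. Of the treated mice 3 lay above every control and the others lay within their range. The log2 fold change of *Gabrd* was 0.14 (standard error 0.080, 95% interval -0.03 to 0.30), with a limma adjusted p of 0.35. Without mice 8_4, 9_3 and 12_2 it was 0.08 (limma adjusted p = 0.815), and with the trend on transcript length removed it was also 0.08 (limma adjusted p = 0.744).

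The alpha2, alpha3 and alpha4 genes stood close to control. *Gabra2* (ENSMUSG00000000560.9), on the minus strand of chromosome 5 from 70957597 to 71095849, had 2668 ± 176 normalized counts in control and 2664 ± 156 in *R. flavefaciens* mice (SD, n = 6 each). Its 95% interval for the log2 fold change ran from -0.11 to 0.10, the narrowest of the 7 genes. *Gabra3* (ENSMUSG00000031343.13), on the minus strand of chromosome X from 72432681 to 72656848, had 2580 ± 54.9 and 2516 ± 295, and its interval ran from -0.17 to 0.08. *Gabra4* (ENSMUSG00000029211.11), whose product pairs with delta in the forebrain, lies on the minus strand of chromosome 5 from 71569749 to 71658308 and had 1566 ± 77.3 and 1513 ± 129, with an interval from -0.21 to 0.11. The limma adjusted p-values of these 3 genes were 0.989, 0.73 and 0.754 in that order. The sign of these 3 log2 fold changes turned under some alternatives, and none was called in any. For *Gabra3* and *Gabra4* these alternatives included fits that left out mice. The *Gabra3* mean rested on a wide spread, from 2042 in mouse 8_4 to 2884 in mouse 9_1, against 2501 to 2643 in the controls. *Gabra4* and *Gabrb1* overlap on opposite strands over 196 bases at their starts.

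**Figure D5:**
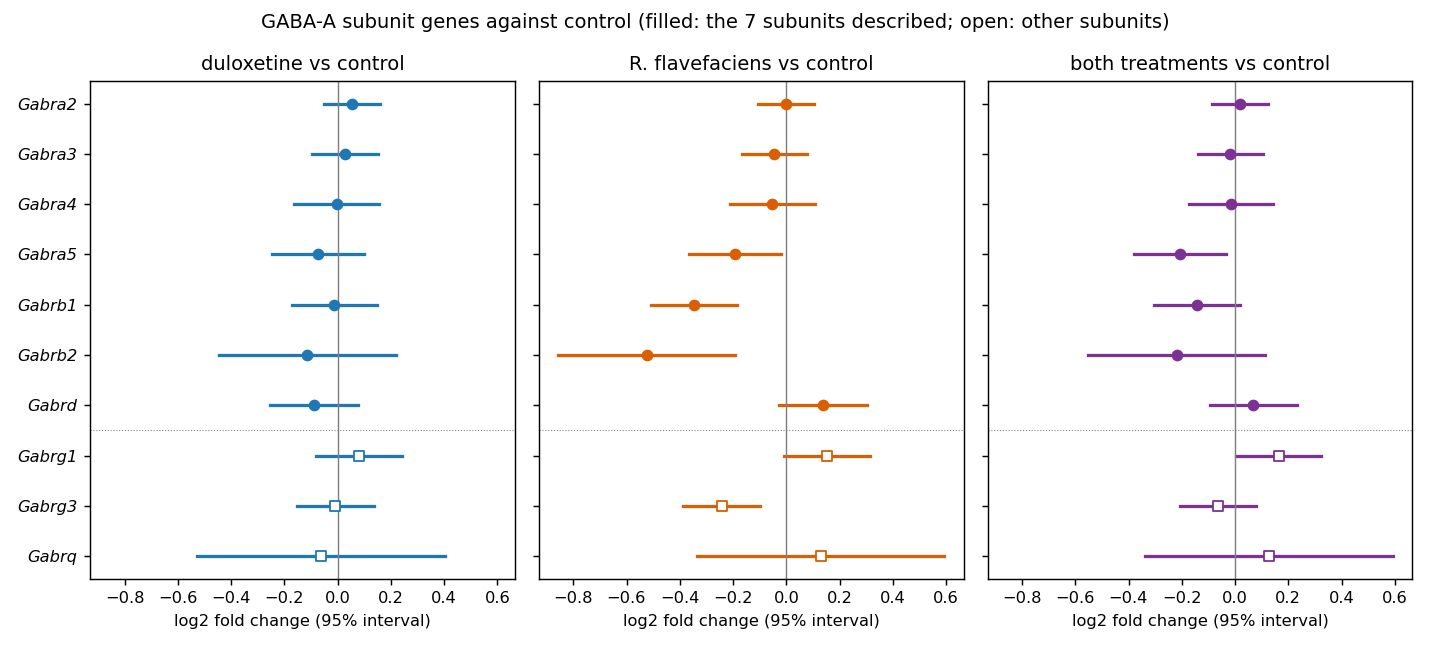
Log2 fold changes with 95% intervals (horizontal axis) of 10 GABA-A subunit genes for duloxetine, *R. flavefaciens* and both treatments against control, from 1 limma fit on 24 mice. In *R. flavefaciens* mice the intervals of *Gabrb1*, *Gabrb2* and *Gabra5* lie below 0, as does that of *Gabrg3* among the other subunits, and no interval of the 7 genes lies off 0 under duloxetine.

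In mice given duloxetine alone, the log2 fold changes of the 7 genes against control ranged from -0.11 for *Gabrb2* to 0.05 for *Gabra2*. That of *Gabra2* was 0.02 with the GC trend removed, and ranged from 0.033 to 0.088 with 1 mouse left out. The duloxetine mice had from 2380 to 3027 normalized counts of *Gabrb2*, with a median of 2685, and 4 of them lay below every control. The 95% interval of *Gabrb2* ran from -0.45 to 0.22, and the interval of *Gabrb1* ran from -0.17 to 0.15. In this comparison 0 of the 7 genes had an unadjusted p below 0.05, a rule met by 3.83% of all genes, and limma called 0% of all genes at the adjusted threshold. DESeq2 and edgeR on recovered reads also called 0 of the 7, against 0.00668% and 0% of all genes.

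In mice given both treatments, *Gabra5* was the member farthest from control by its p-value. Its normalized counts were 662, 786, 861, 927, 937 and 1015, of which 4 lay below every control and 1 just above them. The log2 fold change of *Gabra5* was -0.21 (standard error 0.084), with a limma adjusted p of 0.227. Mouse 12_2 gave the lowest value and mouse 11_4 the next, and without mouse 12_2 the log2 fold change of *Gabra5* was -0.13 (limma adjusted p = 0.484). The combined mice had 2756, 2768, 2997, 3161, 3163 and 3296 normalized counts of *Gabrb1*, and 3 of them lay below every control. Their *Gabrb2* counts were 2033, 2068, 2533, 2747, 2845 and 2897, and 4 lay below every control. The log2 fold changes against control were -0.14 for *Gabrb1* (limma adjusted p = 0.348), -0.22 for *Gabrb2* (0.501) and 0.07 for *Gabrd* (0.689). With 1 mouse left out, the *Gabrd* value ranged from 0.03 without control mouse 3_3 to 0.11 without combined mouse 11_4, and it moved by over 1.5 times without 10_2, 12_4, 2_2 or 11_3 as well. With the length trend removed it was 0.01, and that of *Gabrb1* was -0.09, as it was with quantile scaling. Only *Gabra5* had an unadjusted p below 0.05 here, against 16.8% of all genes, and limma called 0 of the 7 against 0.1% of all genes. DESeq2 on recovered reads called 0 of the 7 and 1.45% of all genes, and edgeR 0 of the 7 and 0.114%.

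The remaining comparisons share mice with those above, and their values are given for the members that varied most. Against duloxetine alone, the combined mice had log2 fold changes of -0.13 for *Gabra5*, -0.13 for *Gabrb1*, -0.10 for *Gabrb2* and 0.16 for *Gabrd*. Without mouse 12_2 the values were -0.06 for *Gabra5* and -0.05 for *Gabrb2*, and without 11_4 or 5_4 that of *Gabrb2* was -0.05 or -0.07. The lowest limma adjusted p was 0.818, for *Gabrd*, of which 4 combined mice lay above every duloxetine mouse. Here 0 of the 7 genes had an unadjusted p below 0.05, against 5.9% of all genes, and limma called 0% of all genes. Against *R. flavefaciens* alone, the combined mice had higher *Gabrb1*, with 3 mice above every *R. flavefaciens* mouse at 0.20 on the log2 scale (standard error 0.078, adjusted p = 0.154 by limma). *Gabrb2* had 0.31 (standard error 0.16, limma adjusted p = 0.296). Without mouse 9_3 of the *R. flavefaciens* group these log2 fold changes were 0.12 for *Gabrb1* (limma adjusted p = 0.349) and 0.10 for *Gabrb2* (limma adjusted p = 0.688). Without mice 8_4, 9_3 and 12_2 they were 0.09 and 0.03, and for *Gabrb1* 0.05 with the length trend and 0.13 with the GC trend removed. *Gabrb1* was the only member with an unadjusted p below 0.05 in that comparison, against 19.7% of all genes, and limma called 2.23% of all genes and 0 members.

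Whether duloxetine altered the response to the bacterium was tested by the interaction, that is, the difference between the duloxetine effects with and without *R. flavefaciens*. It was 0.21 for *Gabrb1* (standard error 0.11, limma adjusted p = 0.651) and 0.42 for *Gabrb2* (standard error 0.23, limma adjusted p = 0.655) on the log2 scale. Without mouse 9_3 it was 0.13 for *Gabrb1* and 0.22 for *Gabrb2*. It was 0.11 and 0.15 without mice 8_4, 9_3 and 12_2, and 0.05 for *Gabrb1* with the length trend removed. The 95% intervals ran from -0.01 to 0.44 for *Gabrb1* and from -0.05 to 0.89 for *Gabrb2*, so the lower *Gabrb1* and *Gabrb2* counts of *R. flavefaciens* mice were not shown to differ with duloxetine. At an unadjusted p below 0.05 it found 0 of the 7 genes and 7.53% of all genes, and limma called 0% of all genes. In these 3 comparisons DESeq2 and edgeR on recovered reads called 0 of the 7 as well. Of all genes, DESeq2 called 0.00668% against duloxetine alone, 4.17% against *R. flavefaciens* alone and 0% for the interaction, and edgeR called 0%, 2.18% and 0% in that order.

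With the bacterium averaged over both duloxetine states, so that 12 mice stood against 12, *Gabrb1* and *Gabrb2* again had the smallest p-values of the 7. The log2 fold change was -0.24 for *Gabrb1* (standard error 0.055, limma adjusted p = 0.0983), -0.31 for *Gabrb2* (standard error 0.11, adjusted p = 0.155), -0.16 for *Gabra5* (standard error 0.060, adjusted p = 0.157) and 0.15 for *Gabrd* (standard error 0.057, adjusted p = 0.174). Without mice 8_4, 9_3 and 12_2 the values were -0.16 for *Gabrb1* (limma adjusted p = 0.203), -0.12 for *Gabrb2* (0.575) and -0.07 for *Gabra5* (0.665). With the length trend removed that of *Gabrb1* was -0.12 (limma adjusted p = 0.208). With all mice these 4 genes had an unadjusted p below 0.05, as did 18.1% of all genes. At the adjusted threshold limma called 0 of the 7 and 0.0267% of all genes, edgeR likewise called 0 of the 7 and 0.0267% of all genes, and DESeq2 called *Gabrb1* (adjusted p = 0.012) and 2.95% of all genes. At an adjusted p below 0.1 limma called *Gabrb1* and 1.34% of all genes. With duloxetine averaged over both bacterial states, 0 of the 7 genes had an unadjusted p below 0.05, against 14.9% of all genes. There 0 of the 7 were called by limma, DESeq2 or edgeR, which called 1.03%, 2.14% and 0.935% of all genes in that order.

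The members did not vary as a single unit from mouse to mouse. With group means taken off, *Gabrb1* and *Gabrb2* had a Pearson correlation of 0.80 over 24 mice, and of 0.63 without mouse 9_3. *Gabra3* and *Gabra4* had 0.75, *Gabra4* and *Gabra5* 0.72 and *Gabra3* and *Gabrb2* 0.68. *Gabrd* varied against *Gabrb1* with -0.62, and *Gabra2* was near 0 with *Gabrb1* at -0.08. The correlation with the mean of the 7 genes was 0.89 for *Gabra4* and 0.87 for *Gabra3* at the top, and 0.30 for *Gabra2* and 0.13 for *Gabrd* at the bottom. These are descriptions, since all points share their libraries.

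Markers of other cells varied beside the members. Within groups, *Gabra3* had a correlation of -0.80 with the mean of the striatum markers and of 0.80 with that of the excitatory neuron markers. Mice 8_4 and 11_4 had the highest striatum sums of their groups, and the lowest *Gabra3* counts, 2042 and 2255. The correlations of *Gabra3* with these markers were not computed without these mice. *Gabra5* had 0.76 with the excitatory neuron markers and -0.75 with the astrocyte markers, and *Gabrb2* had 0.70 and -0.57. In *R. flavefaciens* mice the 10 deep layer markers, led by *Bcl11b*, had a median log2 fold change of -0.32 against control, and 5 of 10 were lower at an unadjusted p below 0.05, against 10.8% of all genes. The 13 inhibitory neuron markers, led by *Gad1*, had a median of 0.16, with 6 higher and 1 lower by that rule, against 8.86% of all genes that were higher. Of the 8 microglia markers, led by *Csf1r*, 5 were higher, and of the 5 blood markers, led by *Hbb-bs*, 4 were higher. The medians of the other marker lists were -0.05 for excitatory neurons, 0.004 for upper layers, 0.14 for astrocytes, 0.13 for oligodendrocytes, 0.20 for microglia and 0.09 for endothelial cells and pericytes. They were 0.23 for striatum, 0.07 for thalamus, 0.98 for choroid plexus and 0.75 for blood. The striatum sums of *R. flavefaciens* mice had a median of 2636 normalized counts, below 2891 in controls, and reached 7980 in mouse 8_4. Their choroid plexus sums had a median of 85.5 against 50.3 in controls, and reached 791 in mouse 8_4. No marker of these lists passed the adjusted threshold in limma in this comparison. Log2 fold changes fell with transcript length here (rank correlation -0.487 across genes), and the part of that trend in the marker values was not tested. The 8 oligodendrocyte markers, led by *Mbp*, summed to between 12524 and 46882 normalized counts in *R. flavefaciens* mice and to between 14388 and 39006 in controls. No measured marker was at 0 in every mouse of the study, and the part of these cells in the results for the subunit genes was not tested.

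Markers also differed between the combined mice and control, the comparison in which *Gabra5* had the smallest p-value of the 7 genes. At an unadjusted p below 0.05, 6 of 8 microglia markers, 5 of 5 blood markers, 4 of 8 endothelial and pericyte markers and 3 of 8 astrocyte markers were higher, and 3 of 10 deep layer markers were lower. Of all genes, 8.08% were higher and 8.73% lower by this rule. The median log2 fold changes were 0.23 for microglia, 0.78 for blood, 0.20 for endothelial cells and pericytes, 0.15 for astrocytes and -0.17 for deep layers. All 10 deep layer markers had a value below 0. The microglia markers summed to 5106 ± 676 normalized counts in combined mice and 4371 ± 258 in controls (SD, n = 6 each), and mouse 12_2, which was lowest in *Gabra5*, had the highest sum, 6143. No marker of these lists passed the adjusted threshold in limma here either, and their part in the *Gabra5* value was not tested.

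Of other GABA-A subunit genes, *Gabrg3*, a gamma subunit, had 759, 798 and 811 normalized counts as the lowest, median and highest value in the controls, and 564, 682 and 760.2 in *R. flavefaciens* mice. The ranges met only at their edges, and the log2 fold change of *Gabrg3* was -0.24 (limma adjusted p = 0.0806). Its lowest values belonged to mice 9_3, 8_4 and 7_2, the libraries with the most negative length trend. The longest coding transcript of *Gabrg3* has 9767 bases, and the part of that trend in its value was not tested. *Gabrg1*, another gamma subunit, had 0.15 (limma adjusted p = 0.28), and *Gabrq*, which encodes the theta subunit, had 0.13 (limma adjusted p = 0.80) at a mean below 15 normalized counts in each group.

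Genes around the receptor were read from lists chosen with earlier results known. Of 23 measured genes for clustering and trafficking of the receptor, 6 were lower and 1 higher in *R. flavefaciens* mice at an unadjusted p below 0.05, and their median log2 fold change was -0.07. By this rule 10.8% of all genes were lower and 8.86% higher, which is also the background for the lists that follow. The smallest p-values belonged to *Macf1*, a crosslinker of actin and microtubules (-0.31, limma adjusted p = 0.0795), and *Dmd*, which encodes dystrophin (-0.23, limma adjusted p = 0.123). *Macf1* ran from 3982 to 6821 normalized counts in *R. flavefaciens* mice and from 6840 to 7950.5 in controls, with no overlap, as for 0.835% of all genes in this direction. The longest coding transcripts of *Macf1* and *Dmd* have 23495 and 14910 bases, the greatest lengths among the 23, and log2 fold changes fell with transcript length in this comparison (rank correlation -0.487 across genes). The part of that trend in their values was not tested. Of 6 genes of the metabotropic GABA-B receptor, 2 were lower, namely its auxiliary subunit *Kctd16* (-0.41, limma adjusted p = 0.111) and its core subunit *Gabbr2* (-0.22, limma adjusted p = 0.153), and the median was -0.14.

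Genes that make, load and clear GABA had a median log2 fold change of 0.04 over 9 genes, and 1 was higher at an unadjusted p below 0.05. That gene was *Slc32a1*, the vesicular GABA transporter (0.16, limma adjusted p = 0.225), and *Aldh5a1*, an enzyme of GABA breakdown, had -0.08 (limma adjusted p = 0.304). The highest value in the list, singled out after the values were seen, was 0.46 for the GABA and betaine transporter gene *Slc6a12* (standard error 0.28, limma adjusted p = 0.384). Of 7 genes that set the chloride gradient, 1 was lower by that rule, the kinase gene *Wnk3* (-0.30, limma adjusted p = 0.0875), beside *Wnk1* with -0.17 (limma adjusted p = 0.326). Of 3 measured glycine receptor genes, *Glra2* was lower (-0.56, limma adjusted p = 0.0929), and *Glra3* had -0.20 (limma adjusted p = 0.469). Over 5 genes of neurosteroid synthesis, whose products modulate delta receptors, 0 met that rule, and *Star* had 0.15 and *Cyp11a1* 0.17. Over these 6 lists limma called 0 genes at the adjusted threshold in any of the 8 comparisons.

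The genes most like the members in their variation over 24 mice, by the Pearson correlation with the mean of the 7 after group means were taken off, were *Megf9* (0.955), *Nckap1* (0.953), *Mtpn* (0.951), *Cdk17* (0.944) and *Dpp10* (0.943). The most opposite were *Ptma* (-0.895), *Vamp3* (-0.885) and *Matn4* (-0.877). In *R. flavefaciens* mice the first 5 had log2 fold changes from -0.15 to -0.05 and none was called by limma.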

How the data were processed

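Poly(A) RNA of 24 mPFC samples, 6 per group, had been sequenced. According to the methods, the authors mapped the reads with Tophat2 to GRCm38.p5, whereas the submitters' processing notes name mm9 beside TopHat2 2.1.0, Bowtie2 2.2.6 and DESeq2 1.18.1. Gene positions of the table were the same as in GENCODE vM21 (GRCm38) for 14253 of 15438 matched IDs. The deposited signal values are gene counts that the authors divided by a size factor per mouse, in 1 column per mouse. Whole reads were recovered for 99.997 percent of 370875 non-zero values (tolerance 0.0051). Depth was between 12811413 and 15607343 reads per mouse. The counting program, its use of strand and the filter on genes are not given in the sources used here. The supplement also speaks of scaling to a fixed number of sequences, which the column sums do not show.

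Values were transformed as log2(value + 1), and the 14974 genes averaging 10 normalized counts or more entered limma 3.58.1 (R 4.3.3; eBayes with trend). All 4 groups entered 1 fit with 8 comparisons (5 pairs of groups, the interaction, and each treatment averaged over the other). Two-sided p-values received the Benjamini-Hochberg correction over all genes of a comparison, with a threshold of 0.05. Fold changes are on the log2(value + 1) scale. The scripts were tested on simulated data. The first number of a mouse label may mark a cage, which the labels do not state, and no first number is shared between groups. Whether mice came from separate litters is not given, so p-values measure the spread between these mice. Alternatives were no filter, a filter at a mean of 50, a pseudocount of 0.1, only the groups compared, quantile and upper-quartile scaling, a random block, loess trends on length or GC content (span 0.3), DESeq2 1.42.0 and edgeR 4.0.16 on recovered reads, an adjusted p under 0.1, and leaving out mice. Descriptive values used Python 3.11.15, pandas 2.3.3, numpy 2.4.6 and scipy 1.17.1, and figures matplotlib 3.10.9.

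The members and lists were chosen with earlier results of these data known. The text names all members, other GABA-A subunits of a list (some are not reported here), the 2 genes of each other GABA list with the smallest p for *R. flavefaciens* against control, the most abundant gene of each marker list it reports, and the 5 most and 3 least alike genes.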

Additional observations from a re-analysis of the deposited data

Results flagged for a closer look

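*Gabra2* in control mice had 1 mouse far from the others. Mouse 1_1 had 2994.7 normalized counts and the other 5 controls lay between 2512 and 2677, so its gap to the next mouse was 0.658 of the whole range, above the critical value of Dixon's ratio for 6 mice. In all, 52 such sets of 6 mice were tested, and chance flags about 1 in 20. Without this mouse the log2 fold change of *Gabra2* for *R. flavefaciens* against control was 0.03.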

How the results depend on the processing

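Over 2051 estimates of the 7 genes under alternatives, 113 had another sign than in the limma fit reported, none of these was called, and the largest had a size of 0.083. Members called at the adjusted threshold came to 9 estimates, 8 of *Gabrb1* and 1 of *Gabrb2*. For *R. flavefaciens* against control the number of members called was 0 in the fit reported, 1 with a random block (consensus correlation -0.0451), 1 with DESeq2 and 2 at an adjusted p under 0.1. It ranged from 0 to 2 when 1 mouse was left out, being 1 without mouse 8_3 (*Gabrb1*, adjusted p = 0.0187) or 9_1 (0.0459) and 2 without 9_2 (*Gabrb1*, 0.0305, and *Gabrb2*, 0.0355), by limma. Those fits also called more genes in all, 427, 239 and 616 against 4 with all mice, DESeq2 called 488, and the random block 221. For *R. flavefaciens* averaged over duloxetine it was 0 in the fit reported, 1 with DESeq2, 1 at an adjusted p under 0.1, and from 0 to 1 with 1 mouse left out, being 1 without mouse 8_3 or 9_2, fits that called 135 and 69 genes in all against 4 with all mice. In the other 6 comparisons 0 members were called under every alternative run. For *R. flavefaciens* against control, the log2 fold change of *Gabra2* turned to 0.0392 with quantile scaling, 0.0137 with upper-quartile scaling, 0.0011 with the random block, 0.0737 with the length trend removed and 0.0551 with the GC trend removed. With 1 mouse left out it ranged from -0.0227 to 0.0323. That of *Gabra3* was 0.0524 without mice 8_4, 9_3 and 12_2 and 0.0140 without mice 8_4 and 11_4, and ranged from -0.0856 to 0.0140 with 1 mouse left out. That of *Gabra4* was 0.0172 without mice 8_4, 9_3 and 12_2, and ranged from -0.0825 to -0.0210 with 1 mouse left out. The cause of these differences was not tested. The alternatives that leave out several mice were chosen after seeing the data. Depth limits none of the 7 genes, which all had over 450 normalized counts in every mouse, and the spread between 6 mice sets the precision.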
